A study of Mus musculus with 6 samples.

Results

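Cytosolic ribosomal protein genes were compared in thymic epithelial cells (TECs) of Δ*socs3* and WT mice. They were taken by name as every gene whose only symbol in the array annotation is an *Rpl* or *Rps* name with a number, or *Rplp0*, *Rplp1*, *Rplp2* or *Rpsa*, without pseudogenes and without the *Rps6k* kinases. The rule found 46 of the 30176 genes tested. Of the 77 listed proteins of the cytosolic ribosome, 33 were measured this way, namely 15 of 31 from the small (40S) subunit, 17 of 43 from the large (60S) subunit and 1 of 3 from the stalk. Another 37 had only probe sets shared with further symbols, and 7 were not analysed here. The other 13 names are 6 paralogs, 6 further copies and *Rps19bp1*, which fits the name rule and encodes a binding partner of RPS19 and no ribosomal protein.

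Of the 6 samples, 3 are titled KO, which is read here as the label Δ*socs3*, and 3 are titled WT. Each was hybridized to a mouse transcriptome array with RNA of CD45-negative EpCAM+ TECs sorted 7 days after tamoxifen (Tm). EpCAM marks epithelial cells and CD45 hematopoietic ones. The Δ*socs3* mice carry loxP-flanked *Socs3* alleles and a Cre fused to an estrogen receptor domain under the β-actin promoter, so that Tm deletes the gene in all tissues and not in TECs alone. The WT mice carry the same loxP-flanked alleles without Cre and received Tm as well. Ages and the number of mice behind an array are not given in the sources used here. The samples are described as independent. In such bulk samples, fewer cells of a type and less RNA per cell cannot be told apart.

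The cytosolic ribosome is built from ribosomal RNAs and a fixed set of proteins, most of them needed in equal number. The 40S subunit binds the mRNA and decodes it, the 60S subunit joins the amino acids, and the stalk of the 60S subunit recruits the elongation factors. The mRNAs of these proteins are among the most abundant of a growing cell. Most of them begin with a run of pyrimidines, the terminal oligopyrimidine (TOP) tract, through which mTOR and LARP1 set their translation together, and an array of RNA levels does not see that step. SOCS3 is a feedback inhibitor of cytokine receptors that signal through STAT3. Ribosomal proteins also matter for the thymus itself, since mice without RPL22 fail to make most αβ T cells.

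The starts of the genes are shown because the TOP tract is the sequence feature that the group is known for, and because the name rule did not use it. A promoter sequence at a RefSeq start (GRCm38.p6) was available for 38 of the 46 genes. None was available for *Rpl6l*, *Rpl7*, *Rpl8*, *Rps14*, *Rps20*, *Rps29*, *Rps3a2* and *Rps3a3*, although RefSeq gives positions for these genes too. The word CTTTCC was searched, and likewise the word CTTTTC, and then the word CTCTTT, which may all overlap each other, on the strand of the gene within 25 bases either side of the start. At least 1 of them was found in 8 of the 38 genes (21.1%), against 6.47% of 27025 genes. A word in this window need not be a TOP tract, and a tract need not hold a word. The 8 are printed first, and then *Rps28*, *Rpl32l* and *Rpl22l1*, which had none of the words and are among the genes with the smallest p below. Each line runs 5′ to 3′ from 25 bases before the start to 25 bases after it, with the words in capitals.
Rps9: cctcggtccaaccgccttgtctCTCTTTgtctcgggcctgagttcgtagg
Rps10: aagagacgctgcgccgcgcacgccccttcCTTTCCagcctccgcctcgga
Rps26: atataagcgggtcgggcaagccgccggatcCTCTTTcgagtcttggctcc
Rpl4: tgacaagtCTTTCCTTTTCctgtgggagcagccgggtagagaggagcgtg
Rpl12: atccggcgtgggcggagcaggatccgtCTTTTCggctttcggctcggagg
Rpl35: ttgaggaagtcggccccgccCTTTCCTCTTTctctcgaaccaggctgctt
Rpl38: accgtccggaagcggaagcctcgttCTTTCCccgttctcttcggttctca
Rpl39l: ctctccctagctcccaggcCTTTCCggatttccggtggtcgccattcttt
Rps28: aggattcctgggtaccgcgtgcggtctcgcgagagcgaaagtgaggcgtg
Rpl32l: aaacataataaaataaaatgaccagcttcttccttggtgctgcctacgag
Rpl22l1: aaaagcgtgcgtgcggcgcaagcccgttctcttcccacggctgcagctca
The windows lie at chr7:3704016-3704065 on the plus strand for *Rps9*, chr17:27635220-27635269 on the minus strand for *Rps10*, chr10:128626482-128626531 on the minus strand for *Rps26*, chr9:64173362-64173411 on the plus strand for *Rpl4*, chr2:32961687-32961736 on the plus strand for *Rpl12*, chr2:39005107-39005156 on the minus strand for *Rpl35*, chr11:114668555-114668604 on the plus strand for *Rpl38*, chr16:10170203-10170252 on the plus strand for *Rpl39l*, chr17:33824538-33824587 on the minus strand for *Rps28*, chr10:20208414-20208463 on the plus strand for *Rpl32l* and chr3:28805483-28805532 on the plus strand for *Rpl22l1*. *Rpl35* and *Rpl4* held 2 of the words each, side by side or overlapping.

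Other motifs were searched on either strand of the window from 250 bases before to 50 bases after the start. CCGGAA, a core that ETS factors such as GABPA bind, was found in 20 of 38 genes (52.6%), against 16.7% of all genes. GGAAGT, which can overlap it, was found in 39.5% against 26.5%, and the GC box GGGCGG in 52.6% against 38.2%. AAGATGG, a core of YY1 sites, was found in 13.2% against 7.28%, and TATAAA in 15.8% against 15.7%. These matches are descriptions of the letters in the windows.

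Signed values below are log2 differences, Δ*socs3* minus WT as the arrays are labelled, after each array was shifted to 1 median over genes. The study describes *Socs3* and *Aire* with the opposite direction to the one found here, so to which genotype a direction belongs cannot be told from these values, and the groups are named as labelled throughout. *Socs3* itself had 8.55, 8.15 and 8.39 on the Δ*socs3* arrays, against 8.0, 8.26 and 7.88 on the WT arrays. The groups overlapped and the difference was 0.32 (SE 0.16, adjusted p = 0.284), with an exact two-sided permutation p of 0.2, where 0.1 is the smallest that 3 arrays against 3 allow. Its mean lay under 10.36, the level that 95% of negative control probe sets stay below and that is used here for genes above negative controls, and which part of the gene the probe set covers is not given in the sources used here. *Aire*, the regulator of tissue antigens in medullary TECs, had 13.53, 12.73 and 13.32 on the Δ*socs3* arrays, against 11.75, 10.94 and 11.60 on the WT arrays, a difference of 1.76 (SE 0.28, adjusted p = 0.0386). By the mean over the 6 arrays, 11 of 13 TEC markers lay above the negative controls. No measured marker of thymocytes, B cells, endothelium or erythroid cells did by that mean. On single arrays some thymocyte markers did. *Cd8b1* ran from 9.33 to 11.23 on the Δ*socs3* arrays and from 9.79 to 10.85 on the WT arrays. *Cd4* ran from 9.54 to 11.22 and from 9.68 to 10.49. All 10 measured thymocyte markers had differences above 0, with a median of 0.21, and none passed. Of 6 measured fibroblast markers 1 had a mean above the negative controls, *Dcn*, which did not pass (adjusted p = 0.525). Among 13 myeloid markers (dendritic cells and macrophages), 3 passed above WT (0.517% of all genes did), with *Lyz2* at 1.83 (adjusted p = 0.0349) the only one above the controls. The log2 of the summed signal of that list ran from 14.28 to 14.98 on the Δ*socs3* arrays and from 12.74 to 13.32 on the WT arrays. That of the TEC list ran from 19.60 to 19.92 on the Δ*socs3* arrays and from 20.10 to 20.44 on the WT arrays. The part of either list in the results below was not tested.

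The array of Δ*socs3* replicate 2 stood apart. On it the SD over genes was 2.33, against 2.61 to 2.67 on the other 5 arrays, and positive controls lay 3.20 above negative ones, against 3.97 to 4.26. Its correlations with the other arrays ran from 0.962 to 0.980, while each other array had a partner at 0.994 or above. Results are therefore also given without it.

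None of the 46 ribosomal protein genes passed an adjusted p of 0.05 in limma, in either direction (over all genes, 1.18% were called lower and 0.517% higher). An unadjusted p under 0.05 was reached by 16 of them below WT and by none above it, beside 17.9% and 5.86% of all genes. Yet 43 of the 46 differences were below 0, with a median of -0.26 and a range of -0.63 (*Rps28*) to 0.07 (*Rps23rg1*). In 31 genes all 3 Δ*socs3* values lay below all 3 WT values, and in none above them (over all genes, 26.5% and 8.17%). The sign was shared by many other genes. The median of all genes was -0.05, with 56.5% of them below 0, and the median of the 4186 genes above the negative controls was -0.33, with 79.8% below 0. Of the 24 ribosomal protein genes above the negative controls, 17 had groups without overlap below WT, beside 47.2% of all such genes, and their median was -0.26.

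**Figure D1:**
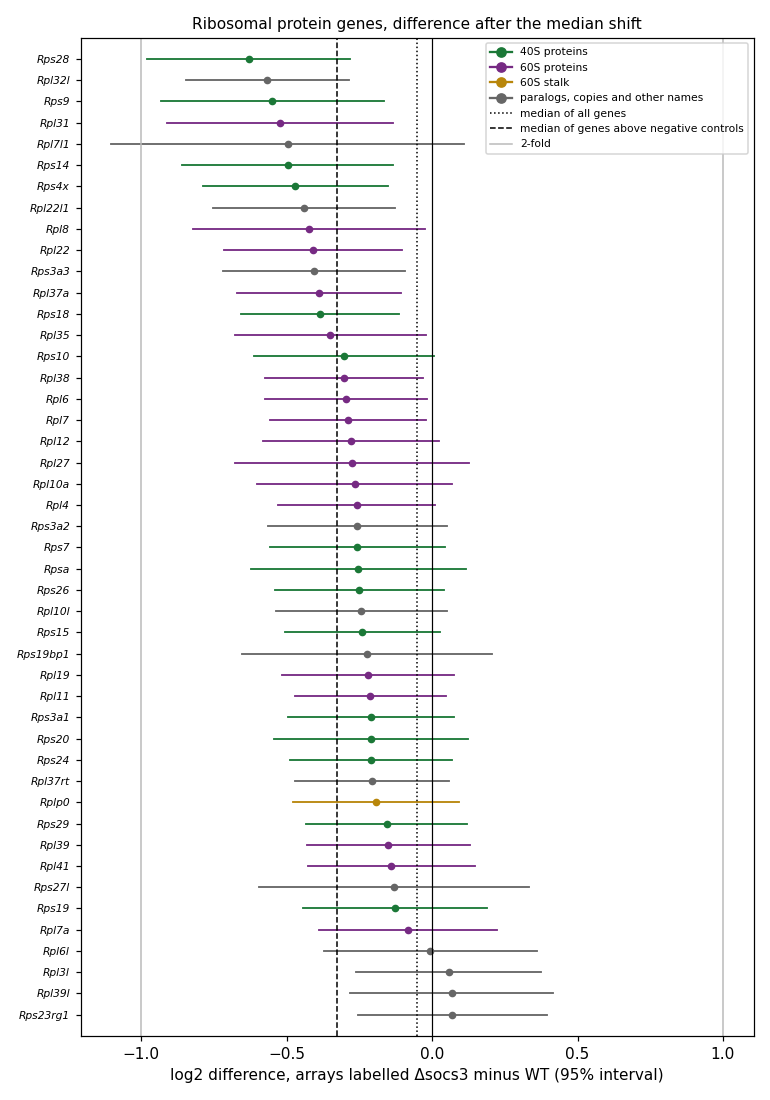
Log2 difference of each of the 46 ribosomal protein genes, arrays labelled Δsocs3 minus WT (horizontal axis), with its 95% interval from limma, coloured by subunit. The points run from -0.63 to 0.07, 16 intervals leave out 0, and the interval of Rpl7l1 is the only one that reaches a 2-fold change.

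The differences were small and close to each other. From the 10th to the 90th percentile the members ran from -0.50 to -0.11, while all genes ran from -0.60 to 0.35. A size over 0.5 was found in 4 of 46 members, against 19.8% of all genes and 38.0% of the genes above the negative controls. The SE of the members lay between 0.11 and 0.26, and the 95% interval left out a 2-fold change in 45 of 46, *Rpl7l1* being the exception. Replicates of these genes were also close, with a median SD within groups of 0.12, against 0.22 over all genes and 0.29 over genes above the negative controls. The median difference was -0.29 in the 8 genes with a pyrimidine word near the start and -0.24 in the 30 without. In *Rpl4* and *Rpl39l* the words lie wholly before the start, so this is no split by TOP tract.

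**Figure D2:**
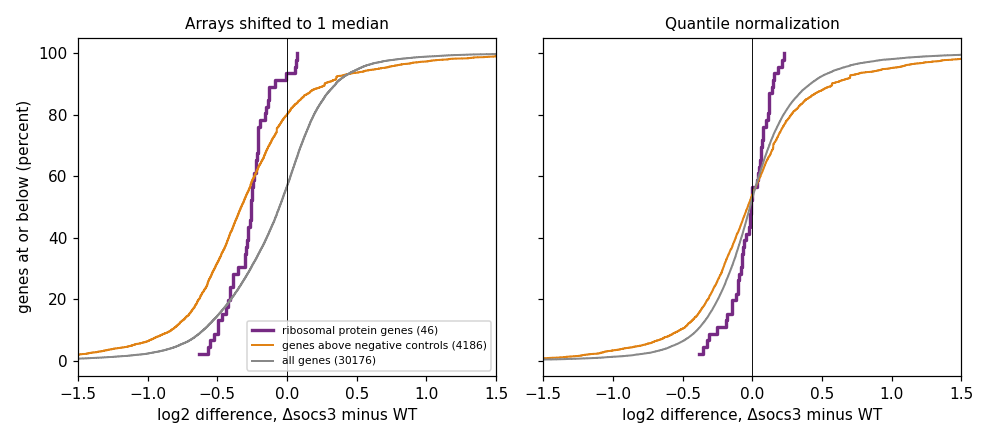
Cumulative share of genes (vertical axis, percent) at or below each log2 difference, Δsocs3 minus WT (horizontal axis), for the 46 ribosomal protein genes, the 4186 genes above the negative controls and all 30176 genes, with arrays shifted to 1 median (left) and after quantile normalization (right). The curve of the ribosomal protein genes is the steepest of the 3 in both panels, with its median at -0.26 on the left and -0.01 on the right.

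The shift below 0 depended on how the arrays were scaled. After quantile normalization, which gives all 6 arrays the same distribution, the median of the members was -0.01, with 25 below 0 and 21 above, and a range of -0.38 to 0.23. The mean deviation of the members from their gene means was then -0.063, 0.154 and -0.124 on Δ*socs3* replicates 1, 2 and 3. On the WT arrays it was 0.017, 0.026 and -0.009. Quantile normalization without Δ*socs3* replicate 2 was not run. Groups without overlap below WT were then found in 7 genes (*Rpl10l*, *Rpl31*, *Rpl32l*, *Rpl4*, *Rpl8*, *Rps14* and *Rps28*), where 20.7% of all genes had such groups. The percentile rank of each gene within its array gave the same 7 genes (20.9% of all genes) and a median difference of -0.02 points. Without any shift the median was -0.12, with 20 genes without overlap below WT (17.5% of all genes), and the median of all genes stood at 0.08. None of the 46 passed under any of these scalings. Over all genes, 7.28% passed in either direction after quantile normalization, 3.04% by percentile rank and 2.39% without a shift.

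The 6 arrays did not share equally in the shift. The lowest of the 6 values was on Δ*socs3* replicate 2 in 33 of the 46 genes (42.1% of all genes), and in 3 of the 46 after quantile normalization. The highest was on WT replicate 2 in 30, for which the share over all genes was not computed. The median signal of the members was 11, 10.94 and 10.88 on the Δ*socs3* arrays, against 11.17, 11.21 and 11.13 on the WT arrays. After quantile normalization it was 10.94, 11.51 and 10.84 on the Δ*socs3* arrays, against 10.99, 10.95 and 11.03 on the WT arrays, so that Δ*socs3* replicate 2 became the highest of the 6. As percentile ranks the medians were 89.3, 91.6 and 88.8 on the Δ*socs3* arrays and 89.5, 89.3 and 89.7 on the WT arrays. Without Δ*socs3* replicate 2 the median difference was -0.20, 31 genes had groups without overlap below WT (33.8% of all genes), and 2 passed the test below WT, *Rpl32l* (adjusted p = 0.019) and *Rps28* (adjusted p = 0.0447), beside 6.05% of all genes.

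**Figure D3:**
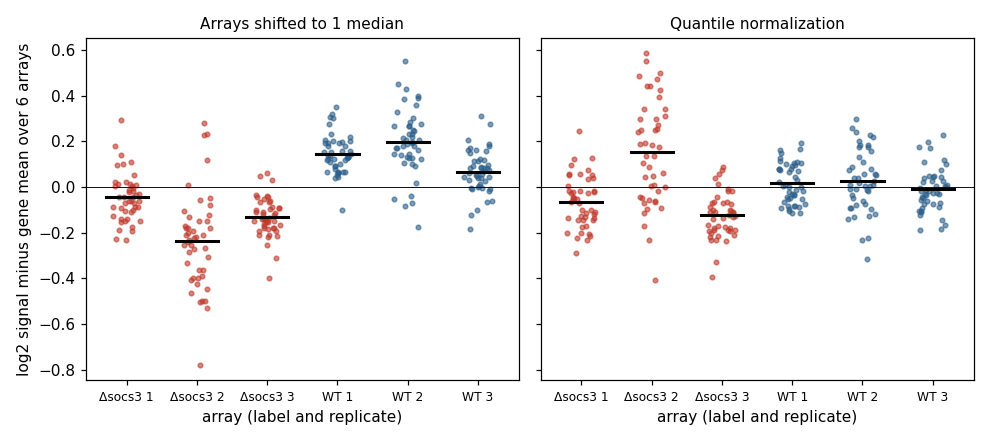
Log2 signal of each ribosomal protein gene on each array minus its mean over the 6 arrays (vertical axis), by array, with arrays shifted to 1 median (left) and after quantile normalization (right). Points are genes and bars are means over the 46 genes, which for Δsocs3 replicate 2 lie at -0.24 on the left and 0.15 on the right.

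Among the 15 proteins of the 40S subunit all differences were below 0, with a median of -0.25, and 11 had groups without overlap (26.5% of all genes had such groups below WT). Of the 15, 6 had a mean above the negative controls, where 47.2% of all genes had no overlap below WT. *Rps28*, *Rps9*, *Rps14*, *Rps18*, *Rps15*, *Rps19* and *Rps10* were not among these 6. *Rps28*, whose protein sits where the mRNA leaves the subunit, had 8.33, 7.98 and 8.03 on the Δ*socs3* arrays, against 8.75, 8.88 and 8.60 on the WT arrays. Every Δ*socs3* value was below every WT value, and the difference of -0.63 (SE 0.15, adjusted p = 0.0778) had a 95% interval of -0.98 to -0.28. *Rps9*, whose protein takes part in the accuracy of decoding, had 9.66, 9.31 and 9.63 on the Δ*socs3* arrays, against 10.16, 10.24 and 9.85 on the WT arrays, without overlap, and a difference of -0.55 (SE 0.16, adjusted p = 0.115). *Rps14*, the gene lost in the human 5q- syndrome, had 8.39, 7.96 and 8.28 on the Δ*socs3* arrays, against 8.65, 8.85 and 8.62 on the WT arrays. The groups did not overlap and the difference was -0.50 (SE 0.15, adjusted p = 0.126).

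*Rps4x*, encoded on the X chromosome, had 11.85, 11.68 and 11.89 on the Δ*socs3* arrays, against 12.11, 12.40 and 12.32 on the WT arrays. Again the groups were apart, at -0.47 (SE 0.14, adjusted p = 0.109). *Rps18*, of the head of the subunit, had 8.58, 8.56 and 8.54 on the Δ*socs3* arrays, against 8.96, 9.03 and 8.85 on the WT arrays, with the groups apart and a difference of -0.39 (SE 0.12, adjusted p = 0.117). *Rps15*, also of the head, had a difference of -0.24 (SE 0.11, adjusted p = 0.251) without overlap, and *Rps26*, which contacts the mRNA upstream of the start codon, one of -0.25 (SE 0.12, adjusted p = 0.269) without overlap.

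The differences of 2 other 40S genes with well known functions were near the middle or the top of the range. *Rpsa*, which encodes the ribosomal protein also known as the laminin receptor, had 13.38, 12.93 and 13.29 on the Δ*socs3* arrays, against 13.46, 13.56 and 13.34 on the WT arrays. The highest Δ*socs3* value lay above the lowest WT value, and the difference was -0.25 (SE 0.16, adjusted p = 0.373), or -0.12 without Δ*socs3* replicate 2. *Rps19*, the gene most often mutated in Diamond-Blackfan anemia, had 8.16, 7.89 and 7.94 on the Δ*socs3* arrays, against 8.14, 8.23 and 8.0 on the WT arrays, which overlapped, with a difference of -0.13 (SE 0.13, adjusted p = 0.616) and a 95% interval of -0.44 to 0.19. The remaining 40S genes lay between -0.30 (*Rps10*) and -0.16 (*Rps29*).

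The 17 proteins of the 60S subunit were also all below 0, with a median of -0.28, and 13 had groups without overlap (26.5% of all genes). Of the 17, 12 had a mean above the negative controls, where 47.2% of all genes had no overlap below WT. *Rpl22*, *Rpl31*, *Rpl11*, *Rpl7* and *Rpl6* were not among these 12. *Rpl22*, which binds RNA at the surface of the subunit, had 9.31, 9.05 and 9.17 on the Δ*socs3* arrays, against 9.66, 9.63 and 9.47 on the WT arrays. Its groups were apart, with a difference of -0.41 (SE 0.13, adjusted p = 0.129). Its paralog *Rpl22l1*, which RPL22 is known to repress in mice, had 9.92, 9.76 and 10.11 on the Δ*socs3* arrays, against 10.35, 10.42 and 10.34 on the WT arrays, with a difference of -0.44 (SE 0.13, adjusted p = 0.12). Both members of the pair thus lay below WT by about the same amount, and neither passed.

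*Rpl31* had 8.20, 7.67 and 7.95 on the Δ*socs3* arrays, against 8.38, 8.60 and 8.41 on the WT arrays, with a difference of -0.52 (SE 0.17, adjusted p = 0.129), which at -0.32 kept its groups apart after quantile normalization too. *Rpl8*, whose protein lies near the peptidyl transferase centre, had 13.41, 12.99 and 13.45 on the Δ*socs3* arrays, against 13.69, 13.88 and 13.55 on the WT arrays, with Δ*socs3* replicate 2 the lowest of the 6 arrays and a difference of -0.42 (SE 0.17, adjusted p = 0.191). *Rpl37a* had 11.21, 11.08 and 11.18 on the Δ*socs3* arrays, against 11.66, 11.48 and 11.50 on the WT arrays, with the groups apart at -0.39 (SE 0.12, adjusted p = 0.124). These 3 genes had a 95% interval that left out 0.

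*Rpl4*, whose protein lines the exit tunnel of the new peptide, had 17.71, 17.62 and 17.59 on the Δ*socs3* arrays, against 17.90, 17.96 and 17.84 on the WT arrays. The replicates were close and the groups apart, with a difference of -0.26 (SE 0.11, adjusted p = 0.225). *Rpl11*, whose protein binds MDM2 when ribosome assembly fails, had 9.04, 8.98 and 9.04 on the Δ*socs3* arrays, against 9.22, 9.27 and 9.21 on the WT arrays. Its SD within groups was the smallest of all members at 0.03, its groups did not overlap, and its difference was -0.21 (SE 0.11, adjusted p = 0.288). After quantile normalization the difference of *Rpl11* was 0.12. *Rpl7* had a difference of -0.29 (SE 0.11, adjusted p = 0.184) with no overlap.

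The 60S genes nearest to 0 were *Rpl7a*, *Rpl41* and *Rpl39*. *Rpl7a* had 13.78, 13.87 and 13.98 on the Δ*socs3* arrays, against 14.11, 13.85 and 13.92 on the WT arrays, which overlapped, with a difference of -0.08 (SE 0.13, adjusted p = 0.742). *Rpl41*, which encodes the smallest ribosomal protein, had a difference of -0.14 (SE 0.12, adjusted p = 0.535), and *Rpl39*, of the exit tunnel, one of -0.15 (SE 0.12, adjusted p = 0.496). *Rpl27* and *Rpl12* both lay at -0.28 (*Rpl27* at -0.11 without Δ*socs3* replicate 2), and the remaining 60S genes between -0.35 (*Rpl35*) and -0.22 (*Rpl19*). *Rplp0*, the only measured protein of the stalk and the one that anchors the P1 and P2 proteins, had 12.60, 12.44 and 12.53 on the Δ*socs3* arrays, against 12.74, 12.80 and 12.61 on the WT arrays. Its values were apart by a narrow margin, and the difference was -0.19 (SE 0.12, adjusted p = 0.38).

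**Figure D4:**
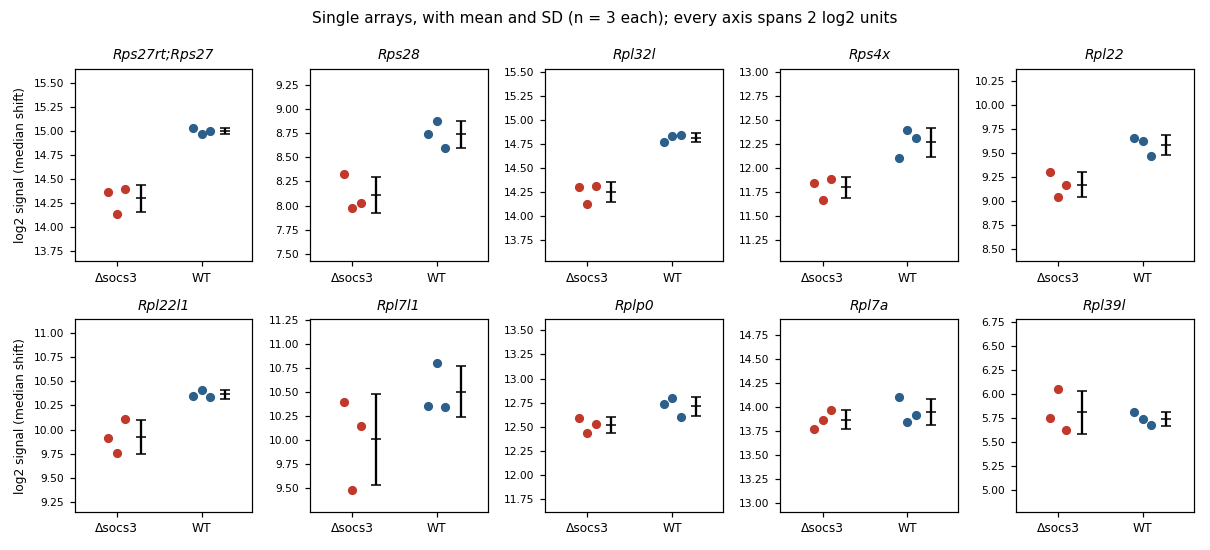
Log2 signal after the median shift (vertical axis, each panel spanning 2 log2 units) of the shared Rps27 probe set on chromosome 3 and 9 ribosomal protein genes on each array labelled Δsocs3 (left, red) and WT (right, blue), with mean and SD (n = 3 each). The groups are apart for Rps27rt;Rps27, Rps28, Rpl32l, Rps4x, Rpl22 and Rpl22l1, apart by a narrow margin for Rplp0, and overlap for Rpl7l1, Rpl7a and Rpl39l.

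Of the 6 measured paralogs, 4 were below 0. *Rpl7l1*, a paralog of *Rpl7*, had 10.40, 9.48 and 10.15 on the Δ*socs3* arrays, against 10.36, 10.81 and 10.35 on the WT arrays, the widest spread of all members, with a difference of -0.50 (SE 0.26, adjusted p = 0.29) and an interval of -1.10 to 0.11. Without Δ*socs3* replicate 2 the difference of *Rpl7l1* was -0.23. *Rps27l*, a paralog of *Rps27* that p53 is known to induce, had 10.09, 9.37 and 9.73 on the Δ*socs3* arrays, against 9.86, 9.99 and 9.73 on the WT arrays. Its groups overlapped, with a difference of -0.13 (SE 0.20, adjusted p = 0.733) that became 0.05 without Δ*socs3* replicate 2. *Rpl10l* and *Rpl39l*, known from the testis, were dim, at -0.24 (SE 0.13, adjusted p = 0.287) without overlap and at 0.07 (SE 0.15, adjusted p = 0.821) with overlap. *Rpl3l*, known from striated muscle, was dim too, at 0.06 (SE 0.13, adjusted p = 0.835). None of the 6 paralogs lay above the negative controls, and their median was -0.19.

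The 6 other copies and names ran from -0.57 to 0.07. *Rpl32l*, a copy of *Rpl32* on chromosome 10, had 14.31, 14.13 and 14.32 on the Δ*socs3* arrays, against 14.77, 14.84 and 14.85 on the WT arrays. It had the smallest p of all members, with the groups apart and a difference of -0.57 (SE 0.12, adjusted p = 0.0646). The probe set shared by *Rpl32* and *Rpl32l* on chromosome 6 had 17, 16.69 and 16.76 on the Δ*socs3* arrays, against 17.06, 17.11 and 16.99 on the WT arrays, with a difference of -0.24 (SE 0.13, adjusted p = 0.326) and overlap. *Rps23rg1*, a retroposed copy of *Rps23*, had 6.95, 7.13 and 7.06 on the Δ*socs3* arrays, against 7.17, 6.93 and 6.83 on the WT arrays, the largest difference above 0 at 0.07 (SE 0.14, adjusted p = 0.796). *Rpl37rt* and *Rps3a2*, copies of *Rpl37* and *Rps3a1*, lay at -0.21 and -0.26, and *Rps3a3* and *Rpl6l* at -0.41 and -0.01. *Rps19bp1* lay at -0.22 (SE 0.18, adjusted p = 0.509) and overlapped. Copies that share most of their sequence with the parent gene cannot be told apart from it with certainty by short probes.

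Many ribosomal proteins were readable only through probe sets that carry further symbols. There were 53 such probe sets, with a median of -0.35, 52 below 0 and 42 without overlap below WT. In a fit with the shared probe sets added (32352 features, of which 1.19% were called lower, 0.504% higher and 26.2% had no overlap below WT), 2 of them passed below WT and none above, and both are shared by *Rps27* and its copy *Rps27rt*. The one on chromosome 9 had 14.18, 14.02 and 14.38 on the Δ*socs3* arrays, against 15, 14.99 and 14.89 on the WT arrays, with a difference of -0.77 (SE 0.14, adjusted p = 0.0486). The one on chromosome 3 had 14.37, 14.14 and 14.40 on the Δ*socs3* arrays, against 15.03, 14.97 and 15 on the WT arrays, with a difference of -0.70 (SE 0.13, adjusted p = 0.0492). RPS27 is a zinc-finger protein of the 40S subunit, and the groups were apart on both probe sets.

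Others of these shared probe sets held genes of known roles. *Rps6*, the target of the S6 kinases, had 11.69, 11.67 and 11.64 on the Δ*socs3* arrays, against 11.95, 12 and 11.90 on the WT arrays, with a difference of -0.28 (SE 0.11, adjusted p = 0.186). *Rpl5*, the partner of RPL11 in binding MDM2, had differences of -0.34 (SE 0.12, adjusted p = 0.167) and -0.45 (SE 0.15, adjusted p = 0.146) on 2 probe sets. *Rps3*, at the entry of the mRNA channel, had -0.43 (SE 0.14, adjusted p = 0.139). These groups did not overlap. *Rpl3*, beside the peptidyl transferase centre, had -0.29 (SE 0.13, adjusted p = 0.219), and *Rpl10*, the last protein to join the 60S subunit, had -0.41 (SE 0.12, adjusted p = 0.114) on the X chromosome and -0.20 (SE 0.12, adjusted p = 0.352) on chromosome 9. The stalk proteins *Rplp1* and *Rplp2* had -0.15 (SE 0.13, adjusted p = 0.515) and -0.37 (SE 0.14, adjusted p = 0.184). *Rpl36a* and *Rpl36al* shared 2 probe sets, at -0.21 (SE 0.13, adjusted p = 0.385) and -0.15 (SE 0.13, adjusted p = 0.516). *Rpl29* came closest to no difference, at -0.01 and 0.01 on its 2 shared probe sets, and *Rpl36* was furthest below 0, at -0.78 (SE 0.25, adjusted p = 0.135).

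In 40 of the 46 genes the probe set used lay on the chromosome of the gene in RefSeq. In 6 it lay on another chromosome (*Rpl12*, *Rpl27*, *Rpl31*, *Rpl35*, *Rpl41* and *Rpl7a*). Dimmer probe sets on the chromosome of the gene gave -0.19 for *Rpl7a*, -0.13 for *Rpl35*, -0.23 for *Rpl41* and -0.26 for *Rpl27*, against -0.08, -0.35, -0.14 and -0.28 with the probe sets used. *Rpl31* and *Rpl12* had only shared probe sets there, at -0.21 (adjusted p = 0.314) and -0.40 (adjusted p = 0.169), against -0.52 and -0.28 with the probe sets used. The signs were the same with both choices, and none of these passed.

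Of 166 other genes that make, use or regulate ribosomes, none passed in either direction (over all genes, 1.18% were called lower and 0.517% higher). *Fau*, which encodes the 40S protein RPS30 fused to a ubiquitin-like protein and so falls outside the name rule, had 13.71, 12.76 and 13.62 on the Δ*socs3* arrays, against 14.12, 14.21 and 13.99 on the WT arrays. Its groups were apart, with Δ*socs3* replicate 2 the lowest value, and the difference was -0.74 (SE 0.26, adjusted p = 0.149). Without that array, where 6.05% of all genes were called lower, it passed, at -0.44 (adjusted p = 0.0446).

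Of 18 listed translation factors and other mRNAs with a TOP tract, 15 were measured, with a median of -0.29, 14 below 0 and 11 without overlap below WT (26.5% of all genes). Of the 15, 14 had a mean above the negative controls. Over all genes above the controls the median was -0.33, and 47.2% had no overlap below WT. *Tpt1*, one of the classical TOP mRNAs, had 10.70, 10.61 and 10.60 on the Δ*socs3* arrays, against 11.18, 11.21 and 11.14 on the WT arrays. The replicates were close, and the difference of -0.54 (SE 0.11, adjusted p = 0.063) passed without Δ*socs3* replicate 2 (-0.53, adjusted p = 0.0183), as did 6.05% of all genes below WT. *Eif4b*, a helper of the helicase that opens mRNA for scanning, had -0.61 (SE 0.17, adjusted p = 0.107). The subunits *Eif3e* and *Eif3f* of initiation factor eIF3 had -0.43 (SE 0.13, adjusted p = 0.123) and -0.48 (SE 0.16, adjusted p = 0.141), and *Npm1*, the nucleolar chaperone, had -0.20 (SE 0.12, adjusted p = 0.356).

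Genes that build the ribosome gave the same sign. Of 50 ribosome biogenesis factors, 46 were measured, with a median of -0.35, 45 below 0 and 22 without overlap below WT (26.5% of all genes). The smallest p were those of *Rrp1b* at -0.66 (SE 0.16, adjusted p = 0.0842), *Wdr43* at -0.72 (SE 0.22, adjusted p = 0.121), *Sdad1* at -0.81 (SE 0.25, adjusted p = 0.124) and *Nop14* at -0.68 (SE 0.25, adjusted p = 0.17). Without Δ*socs3* replicate 2, where 6.05% of all genes were called lower, *Wdr43* (-0.47, adjusted p = 0.0375) and *Sdad1* (-0.52, adjusted p = 0.0388) passed, and *Nop14* was at -0.39. Of 14 genes of RNA polymerase I and its factors, which transcribe ribosomal RNA, 13 were measured, all below 0 with a median of -0.40 and 9 without overlap (26.5% of all genes). *Znrd1*, a subunit of the enzyme, lay at -0.60 (SE 0.17, adjusted p = 0.105), and *Ubtf*, the factor that binds the ribosomal RNA genes, at -0.62 (SE 0.21, adjusted p = 0.144). *Polr1b* and *Taf1b* lay at -0.48 and -0.62. Without Δ*socs3* replicate 2, *Ubtf* was at -0.41 and *Taf1b* at -0.33. These factors had replicates further apart than the ribosomal proteins, with median SDs within groups of 0.32 and 0.30, against 0.12.

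Of 78 mitochondrial ribosomal proteins, which serve the separate ribosome of that organelle, 74 were measured, with a median of -0.24, 70 below 0 and 28 without overlap below WT (26.5% of all genes). *Mrpl52*, *Mrpl3* and *Mrpl17* had -0.61 (SE 0.13, adjusted p = 0.0634), -0.71 (SE 0.17, adjusted p = 0.0811) and -0.90 (SE 0.22, adjusted p = 0.085), and these 3 passed without Δ*socs3* replicate 2, where 6.05% of all genes were called lower. *Mrps35* had -0.43 (SE 0.14, adjusted p = 0.135). Of 19 regulators of ribosomal protein production, 17 were measured, with a median of -0.44 and 16 below 0. *Myc*, which drives ribosome production in many cells, had 10.27, 9.39 and 9.84 on the Δ*socs3* arrays, against 10.21, 10.28 and 10.04 on the WT arrays. Its groups overlapped, with a difference of -0.34 (SE 0.22, adjusted p = 0.401). *Mtor* and *Larp1* had -0.60 (SE 0.26, adjusted p = 0.217) and -0.44 (SE 0.21, adjusted p = 0.266). Without Δ*socs3* replicate 2, *Myc* was at -0.12, *Mtor* at -0.31 and *Larp1* at -0.23. *Eif4ebp1*, the translation repressor that mTOR switches off, had -0.57 (SE 0.17, adjusted p = 0.12), and the transcription factors *Yy1*, *Gabpa* and *Max* had -0.58, -0.59 and -0.63, all without overlap, and -0.40, -0.38 and -0.39 without that array.

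Summarised by list, the medians of these genes lay between -0.44 and -0.24, beside -0.26 for the 46 ribosomal protein genes and -0.33 for all genes above the negative controls. Without Δ*socs3* replicate 2 they were -0.20 for the translation factors, -0.17 for biogenesis factors, -0.205 for RNA polymerase I, -0.10 for mitochondrial ribosomal proteins and -0.24 for the regulators. The ribosomal protein genes were then at -0.20 and the genes above the negative controls at -0.16, so that the order of these medians turned. After quantile normalization they were -0.07 for the translation factors, -0.13 for biogenesis factors, -0.27 for RNA polymerase I, -0.09 for mitochondrial ribosomal proteins and -0.14 for the regulators, beside -0.01 for the ribosomal protein genes. Under that scaling 2 of the 166 genes passed below WT and 2 above it (3.49% and 3.8% of all genes).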

How the data were processed

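RNA of 3 TEC samples titled KO (here Δ*socs3*) and 3 titled WT was hybridized to Affymetrix mouse transcript-cluster arrays. Per the labels and the methods, the authors made biotin-labelled antisense RNA and scaled signals with MAS5. The methods then name a median normalization of each chip and of each gene. Values in the deposited table are log2 (72688 rows, 2.34 to 19.93). They are not centred per gene and array medians differ (6.79 to 7.04), so the table lacks at least part of that normalization. Its genome build is not given in the sources used here.

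Of 65956 transcript clusters, 30638 carried 1 symbol, 2176 several and 33142 none. The brightest probe set of a gene was kept (30176 genes), each array was shifted to 1 median, and limma 3.58.1 was run in R 4.3.3 (lmFit, eBayes, 3.19 prior and 4 residual degrees of freedom) with Benjamini-Hochberg over all genes at 0.05. Steps were tested on simulated data. Tables were made with Python 3.11.15, numpy 2.4.6, pandas 2.3.3, scipy 1.17.1 and matplotlib 3.10.9. Signals carry no depth, and 3 arrays a group limit the precision. Whether samples came from separate animals is not stated, so p-values measure the spread between these samples.

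Members and lists were chosen with earlier results of these data known. Single values are given for proteins of known function, all paralogs, the 8 smallest p and the 5 largest differences in each direction, the 5 highest and 5 lowest means and the 5 largest and smallest SDs, up to 4 genes with the smallest p of each further list, and for *Socs3* and *Aire*. *Rpl6l*, *Rpl7a*, *Rpl19*, *Rpl29*, *Rpl32*, *Rpl35*, *Rpl36*, *Rpl38*, *Rps3a3*, *Rps10*, *Rps29* and the gene starts shown were chosen after values were seen. Alternatives were no shift, quantile normalization, a filter on dim genes, other probe sets, array weights, a robust fit with an intensity trend, the methods' t-test, an unadjusted p, a 2-fold limit, a replicate block, leaving out each array, percentile ranks, the 33 canonical proteins alone, shared probe sets added, and the probe set on the chromosome of the gene (chosen after seeing the data).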

Additional observations from a re-analysis of the deposited data

How the results depend on the processing

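None of the 46 genes passed without a shift, after quantile normalization, by percentile rank, with the dim filter, with other probe sets, with an intensity trend, with a 2-fold limit or by the methods' t-test after Benjamini-Hochberg. In that order, the shares called over all genes in either direction were 2.39%, 7.28%, 3.04%, 12.3%, 1.67% to 1.74%, 1.94%, 1.28% and 0.0133%. The 2-fold limit could call no member, since none differed by 2-fold, and that t-test called hardly any gene. Below WT, 4 passed with array weights (*Rpl32l*, *Rpl37a*, *Rps18* and *Rps28*, beside 9.05% of all genes) and 2 with shared probe sets added (1.19% of all features). At limma's unadjusted p 16 passed, and 26 by the methods' unadjusted t-test (17.9% and 14.2% of all genes). When an array was left out 0 to 2 passed, the 2 without Δ*socs3* replicate 2 (6.05% of all genes). Leaving out any other array called at most 0.0133% of all genes in either direction. None passed above WT under any of these. The median difference was -0.12 without a shift, -0.011 after quantile normalization, -0.20 with array weights, -0.017 points by percentile rank, and -0.32 to -0.20 when an array was left out. Groups without overlap below WT were found in 20 genes without a shift, 7 after quantile normalization, 7 by percentile rank, 17 of 24 with the dim filter (47.2% of all genes so filtered) and 73 of 99 with shared probe sets added (26.2% of all features). Above WT they were found in 0 to 1 gene when an array was left out. Of the 166 further genes, 2 passed below WT and 2 above after quantile normalization (3.49% and 3.8% of all genes), 13 and 1 with array weights (9.05% and 6.01%), 41 and 1 at limma's unadjusted p (17.9% and 5.86%), and 25 below WT by the methods' unadjusted t-test (14.2%). When an array was left out, 0 to 7 passed below WT, the 7 without Δ*socs3* replicate 2 (6.05% of all genes). *Socs3* passed after quantile normalization (0.54, adjusted p = 0.0375) and with array weights (0.46, adjusted p = 0.0364). The cause was not tested for any of these.

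Of 741 values of the 40 genes named with values, 49 changed sign and 43 passed the threshold where they had not. Most of the 43 passed only at an unadjusted p. Those that passed at an adjusted p did so with array weights or without Δ*socs3* replicate 2. Without a shift the sign changed in *Rpl6l* at 0.13, *Rpl7a* at 0.053, *Rps19* at 0.01 and *Rps27l* at 0.0067. After quantile normalization it changed in *Rpl11* at 0.12, *Rpl37rt* at 0.12, *Rpl38* at 0.033, *Rpl39* at 0.19, *Rpl39l* at -0.011, *Rpl3l* at -0.012, *Rpl41* at 0.11, *Rpl6l* at 0.21, *Rpl7* at 0.067, *Rpl7a* at 0.14, *Rplp0* at 0.079, *Rps15* at 0.12, *Rps19* at 0.079, *Rps19bp1* at 0.060, *Rps27l* at 0.23, *Rps29* at 0.046 and *Rps3a2* at 0.039. By percentile rank, in points, the same genes changed sign, *Rpl11* at 1.05, *Rpl37rt* at 0.32, *Rpl38* at 0.070, *Rpl39* at 0.73, *Rpl39l* at -0.28, *Rpl3l* at -0.28, *Rpl41* at 0.029, *Rpl6l* at 0.27, *Rpl7* at 0.34, *Rpl7a* at 0.18, *Rplp0* at 0.17, *Rps15* at 0.65, *Rps19* at 0.90, *Rps19bp1* at 0.58, *Rps27l* at 1.75, *Rps29* at 0.063 and *Rps3a2* at 0.027. With array weights, *Rpl39l* was at -0.055, *Rpl3l* at -0.015 and *Rps27l* at 0.031. When an array was left out, *Rpl39l* ran from -0.057 to 0.16, *Rpl3l* from -0.043 to 0.12 and *Rps27l* from -0.31 to 0.050, with the sign changed only without Δ*socs3* replicate 2. *Rps23rg1* ran from -0.0033 to 0.17, with the sign changed only without WT replicate 3. *Rpl6l* ran from -0.125 to 0.055, below 0 only without replicate 2 of either group.

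Deviations from the group means correlated weakly between arrays with the same replicate number (0.07, -0.13 and -0.18). Over all pairs of a Δ*socs3* and a WT array the correlations ran from -0.26 to 0.26. With 3 arrays a group, such correlations cannot tell whether the number pairs the arrays. With the replicate block, 0 of the 46 passed, and over all genes 4 passed below WT and 25 above, against 356 and 156 without it. In the block fit the median difference was -0.26, unchanged by design, since a block with both groups at every replicate number cannot move it.

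Of the 46 genes, 24 had a mean above the 95th percentile of the negative controls, and for the others the signal over background limits what a difference can show. The zero of a shift that the members share depends on the scaling, as the medians above show, and on Δ*socs3* replicate 2.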

Other observations

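Pseudogenes of ribosomal proteins, which the rule left out, were counted on the same arrays. Of 208 with 1 symbol, none passed, 198 were below 0 and 150 had groups without overlap below WT (26.5% of all genes). Their median difference was -0.35 and their range -0.90 to 0.21. Whether their probe sets also bind RNA of the parent genes was not tested.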
